A study of Mus musculus with 32 samples.

Results

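RNA sequencing of mouse sternal chondrocytes was used to ask which genes stood apart, without IL-1β, between floxed cultures given an adenovirus expressing eGFP and wild-type cultures given no virus. The libraries were taken by their labels alone, and they are 8 of the 32 in the series. The GFP cultures came from 3 floxed lines, labelled LDHA flox, NAMPT flox and NFKBIZ flox and written here as Ldha flox, Nampt flox and Nfkbiz flox, with 2 libraries per line and 6 in all. The reference was the 2 libraries labelled wild type and Untreated. All 8 carry the strain label C57BL/6, and the cells came from the sterna and ribs of pups in their first days of life, of either sex, and were not passaged. The GFP cultures were exposed to virus for 24 h, with polybrene and less serum in the medium, and were then kept for 24 h more, and the floxed genes remained intact because the GFP virus carries no Cre. Virus, mouse line, infection medium and culture differ together between the groups, so they cannot be told apart. No infected wild-type culture and no uninfected floxed culture was analysed here. The labels do not say that the 2 libraries of a group came from separate cultures, and p-values then measure only the spread between these libraries.

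Adenovirus enters cells through the coxsackie and adenovirus receptor (Cxadr) and αv integrins and delivers its DNA to the nucleus, where a vector of this kind expresses its transgene without replicating. Incoming viral DNA is known to be detected by innate sensors that lead to type I interferon and NF-κB activation, and viral infection is classically associated with the p53 and heat shock responses. Chondrocytes are the cells of cartilage, and their defining products are type II collagen (Col2a1) and aggrecan (Acan), made under the control of Sox9.

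The 8 libraries held between 19860937 and 39959888 counts, and among the 41388 genes counted there were 0 entries for eGFP, Cre or the vector, so the amount of virus was not measured. Levels are given as CPM, counts scaled to library size after TMM normalization over the 32 libraries. The chondrocyte label was checked first. Col2a1 stood at 61570 ± 8600 CPM (SD, n = 2) in wild type and between 52370 and 61970 CPM in the 6 GFP libraries, and Sox9 stood at 840.5 ± 162 CPM (SD, n = 2) and between 599.5 and 959 CPM. Other defining markers were less even. Acan was lower in the mean of the GFP lines, and Matn1 differed widely between the wild-type libraries, as given below. Of 29 cartilage matrix genes tested, 13 were called lower in the mean and 1 higher. The title styles of the labels place 1 wild-type, 1 Ldha flox and 1 Nampt flox library in a first set (replicate 1) and the other 5 in a second set. The 2 wild-type libraries were less alike than the 2 of any GFP line. Their counts differed by a median of 33.4 times the squared difference that sampling alone gives, against 7.63, 6.39 and 4.52 times for the Ldha flox, Nampt flox and Nfkbiz flox pairs. The test used below shares its estimate of a gene's spread over all groups, so the wider wild-type spread is averaged with that of the GFP pairs. SE and p against wild type can thus be too small.

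The Ldha flox cultures had 288 genes called higher than wild type (1.87% of 15437 tested) and 434 called lower (2.81%), where a call is a Benjamini-Hochberg adjusted p of 0.05 or less from edgeR's quasi-likelihood test. The Nampt flox cultures had 440 called higher (2.85%) and 669 lower (4.33%), and the Nfkbiz flox cultures 344 (2.23%) and 738 (4.78%). In all 3 lines the same 120 genes were called higher (0.777%) and the same 178 lower (1.15%). The 3 comparisons share the 2 wild-type libraries, so a stray value in a wild-type library can move a gene the same way in all of them. Of the 120 genes, 114 are protein coding and 93 were raised at least 2-fold in the mean of the lines, and of the 178 genes, 175 are protein coding and 140 were at least 2-fold lower. In the mean of the 3 lines 514 genes were called higher (3.33%) and 1200 lower (7.77%). Limma's voom with quality weights, which lets libraries differ in spread, called 784 in the mean in place of 1714. With no test, all 6 GFP libraries lay above both wild-type libraries for 1399 genes (9.06%) and below both for 1775 (11.5%). In the mean, calls over all genes fell without any 1 GFP library and rose without either wild-type library. The counts given below for a list with a library left out share that background. Each library left out in turn moved the counts in common by over 1.5 times. They fell to between 11 and 28 higher and between 2 and 26 lower when any 1 of the 6 GFP libraries was left out, and they were 982 and 1306 without wild-type replicate 1 and 453 and 556 without wild-type replicate 2.

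**Figure D1:**
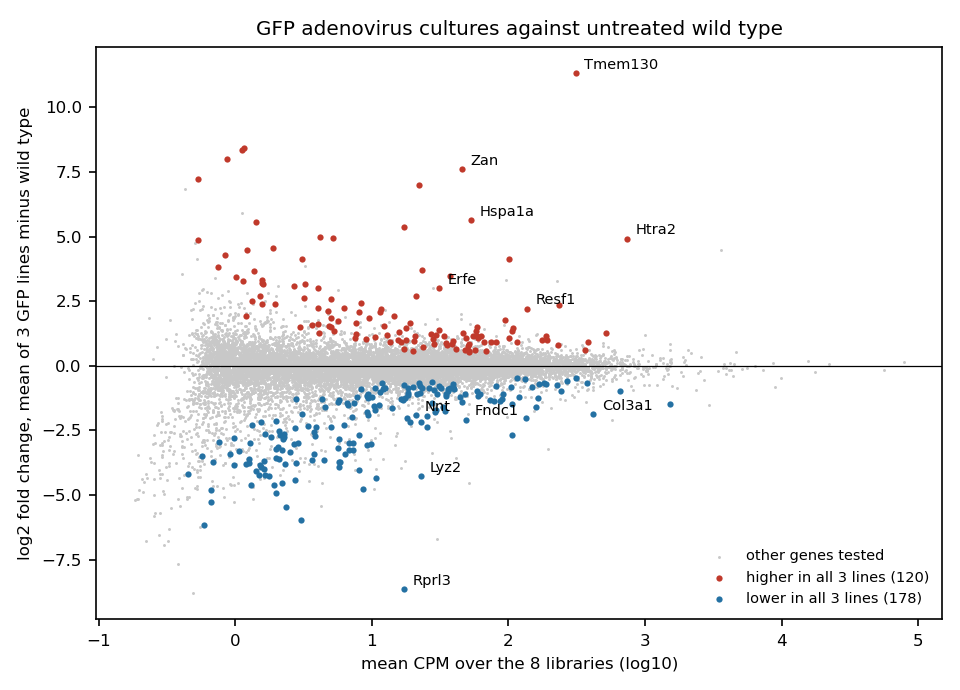
Each point is 1 of 15437 genes, with its mean CPM over the 8 libraries (log10) on the horizontal axis and its log2 fold change, mean of the 3 GFP lines minus untreated wild type, on the vertical axis. The 120 genes called higher in all 3 lines are red and the 178 called lower are blue, with Tmem130 at 11.32 and Rprl3 at -8.62 at the extremes among the named genes.

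Tmem130, which encodes a transmembrane protein, had the largest rise among the genes named by rule. It stood at 0.120 and 0.183 CPM in the wild-type libraries. With GFP virus its CPM was 226 and 263 in Ldha flox, 511 and 589 in Nampt flox and 402 and 494 in Nfkbiz flox libraries. The log2 fold change of the mean was 11.32 (SE 0.28, adjusted p = 5.16e-06). No GFP value came near the wild-type level, and the Ldha flox values were the lowest of the 6. The lines differed for Tmem130 by the F test among lines (adjusted p = 0.0253).

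Zan, the gene of the sperm protein zonadhesin, stood at 0.271 and 0.329 CPM in wild type and between 40.3 and 85.1 CPM with GFP virus (median 60.7), a log2 fold change of 7.62 (SE 0.28, adjusted p = 3.47e-05). Bcas1, a gene of myelinating oligodendrocytes, had no counts in wild-type replicate 1 and 0.476 CPM in replicate 2, and it stood between 16.9 and 38.8 CPM in the GFP libraries. Nat8f5, of an acetyltransferase family, stood at 0.722 and 0.329 CPM in wild type and between 11.4 and 34.1 CPM with virus. These genes, which cartilage is not known for, were near the floor of detection in wild type and well above it in each GFP library. As with Tmem130, they passed the filters on level through the GFP libraries. They were named for their p or change in these same values, so the lack of overlap follows from the choice. Of all genes tested, 9.06% had all 6 GFP libraries above both wild-type libraries. Fem1a, a substrate receptor of a ubiquitin ligase, was already present in wild type at 61.5 and 51.6 CPM and stood between 194 and 403 CPM in the GFP libraries, a log2 fold change of 2.37 (SE 0.19, adjusted p = 8.17e-04).

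**Figure D2:**
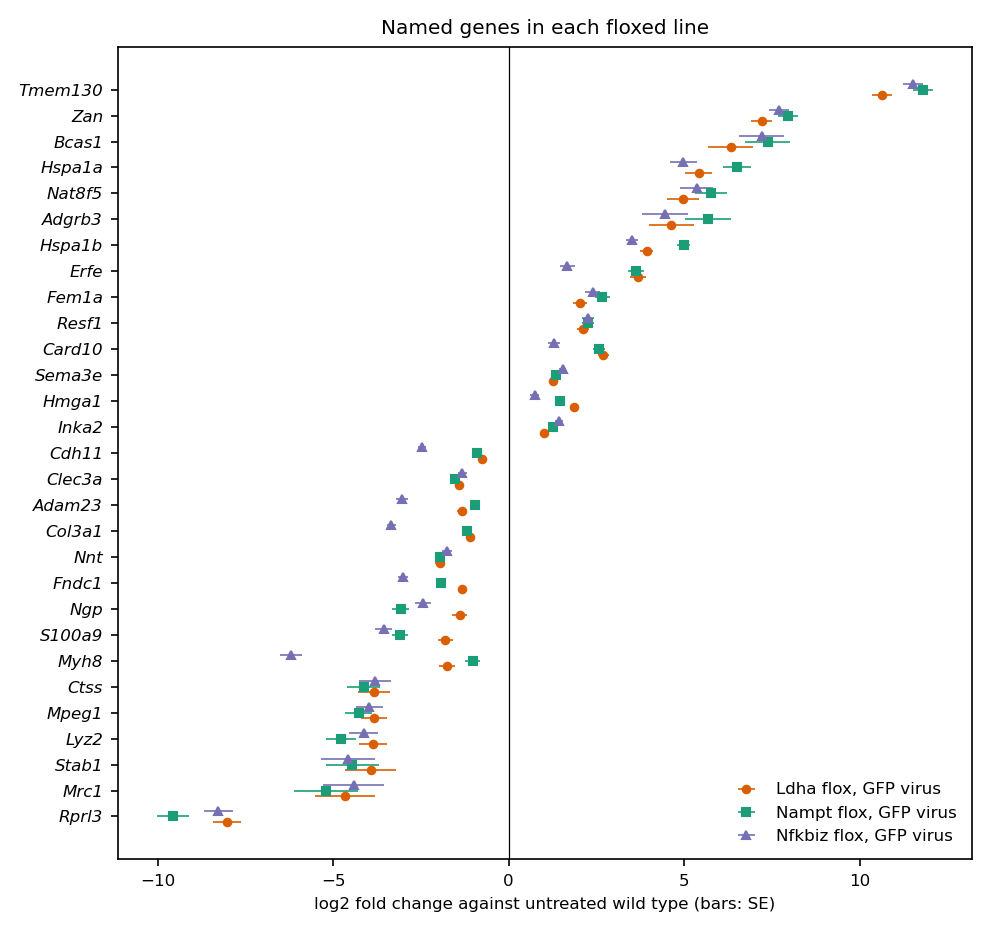
The log2 fold changes of the 29 genes named by rule are plotted for each floxed line given GFP virus against untreated wild type, with bars for 1 SE. The 3 lines lie close together for Zan, Resf1, Nnt and Clec3a, whereas Col3a1, Cdh11, Adam23 and Myh8 were lowest in Nfkbiz flox and Erfe, Card10 and Hmga1 were least raised there.

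The levels of these genes were then set beside those in the same lines given the Cre virus, which expresses Cre as well as eGFP. Over the 120 genes called higher, the mean of the 6 GFP libraries was a median of 0.912 times the mean of the 6 Cre libraries without IL-1β, and for 98 genes the ratio lay between 0.5 and 2. For 17 genes the GFP level was at least 2 times the Cre level. These genes, chosen after their values were seen and described without a test, are Tmem130, Stoml3, Hspa1a, Cd209g, 4930471C04Rik, Bcas1, Nat8f5, Insm2, Zan, Htra2, Hspa1b, Lipg, Rab3d, Hydin, Gm26777, Fem1a and Trrap. The ratio was 31.6 for Tmem130, 17.8 for Hspa1a, 13.6 for Bcas1, 11.3 for Zan, 11.1 for Htra2 and 9.92 for Lipg.

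Within the Cre libraries the lines were not alike for these genes. Tmem130 stood between 13.4 and 26.2 CPM in the 4 Ldha flox and Nampt flox libraries given Cre virus, and at 0.0909 and 0.181 CPM, near the wild-type level, in the 2 Nfkbiz flox libraries. Htra2, a mitochondrial serine protease that can promote cell death, stood at 42.5 and 19.9 CPM in wild type and between 467 and 1329 CPM with GFP virus. With Cre virus it stood between 90.6 and 164.5 CPM in Ldha flox and Nampt flox and at 20.0 and 21.3 CPM in Nfkbiz flox libraries. Fem1a was near its wild-type level with Cre virus in every line, between 51.6 and 59.1 CPM over the 6 libraries. The GFP and Cre libraries compared are of the same lines, and no test of their difference was run.

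The same genes were higher still where IL-1β had been added to GFP cultures. The mean of the 6 libraries with GFP virus and IL-1β was 3.85 times that of the 6 with GFP virus alone for Tmem130, 4.16 times for Htra2, 4.34 times for Zan, 5.65 times for Hspa1b, 4.00 times for Lipg and 3.55 times for Fem1a. In the 8 wild-type libraries of the series, Tmem130 reached at most 0.516 CPM. Trrap, a subunit of histone acetyltransferase complexes, is the neighbour of Tmem130 on chromosome 5, on the other strand (Tmem130, GRCm38 chromosome 5, 144735915 to 144761649; Trrap, 144768092 to 144859778). It stood at 246 and 252 CPM in wild type and between 479.8 and 759 CPM with GFP virus, a log2 fold change of 1.27 (SE 0.12, adjusted p = 0.00144). Htra2 overlaps Aup1 and Loxl3, Zan overlaps Ephb4 and Bcas1 overlaps 2 antisense genes on the opposite strand, and because the sources do not say whether counting used the strand, these counts can hold reads of the partner.

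**Figure D3:**
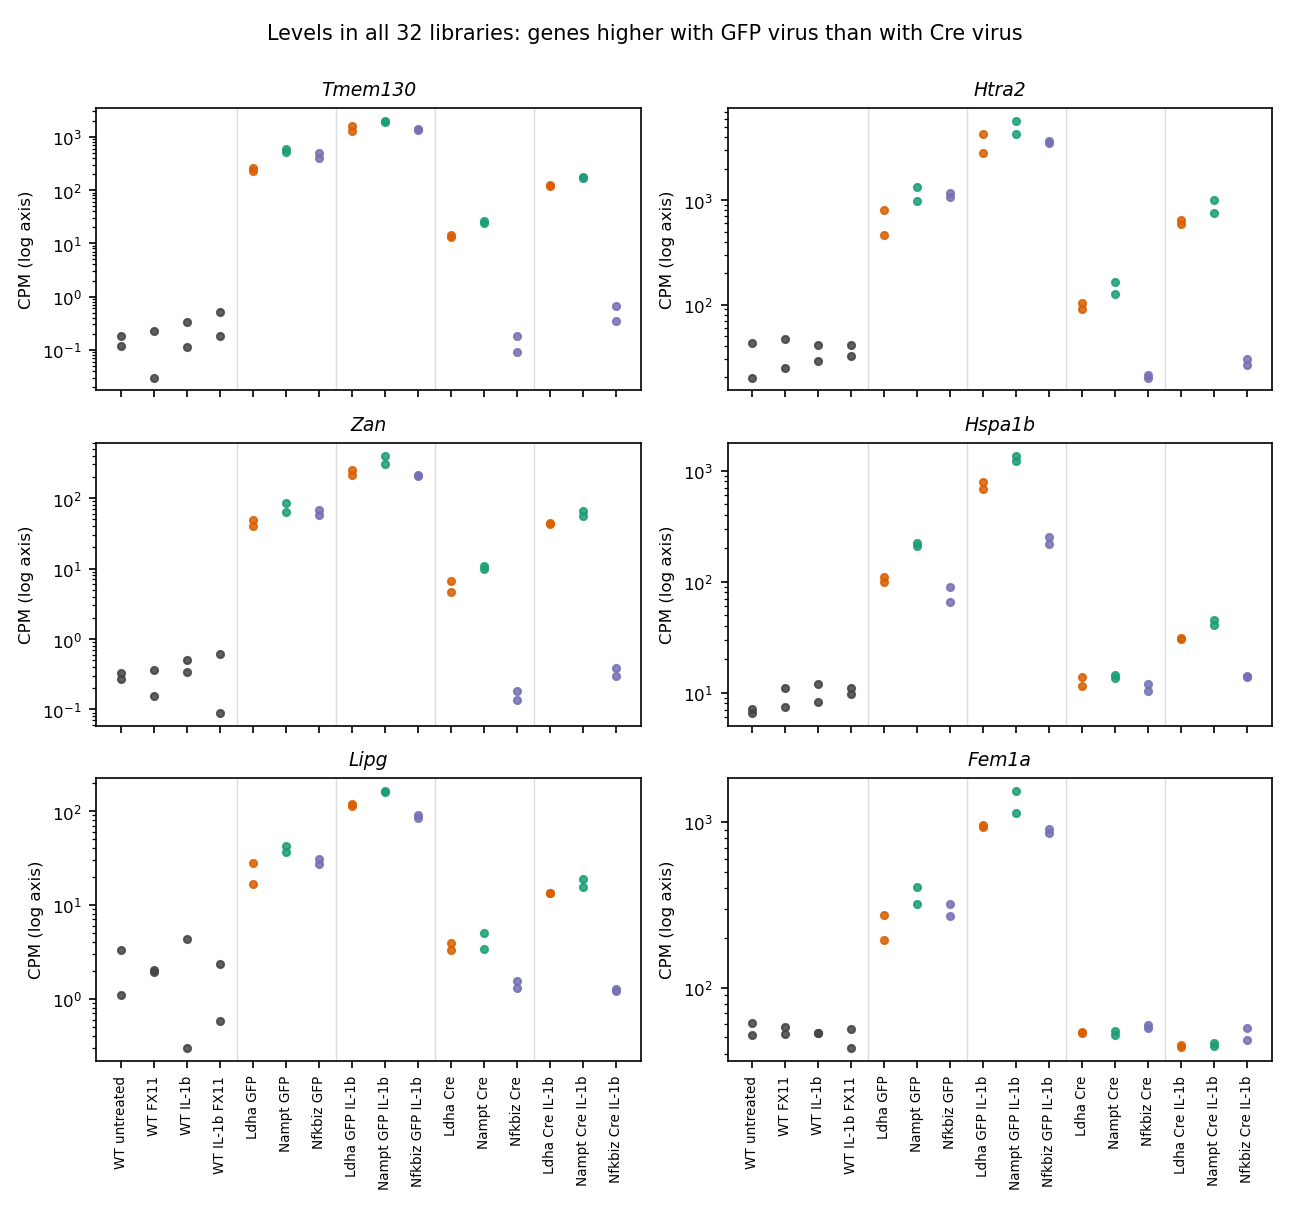
CPM of Tmem130, Htra2, Zan, Hspa1b, Lipg and Fem1a in all 32 libraries, on log axes, with 1 point per library and the 16 conditions along the horizontal axis (dark grey wild type, orange Ldha flox, green Nampt flox, purple Nfkbiz flox). The GFP libraries with IL-1β hold the highest value of every panel, Tmem130 between 1304 and 1986 CPM, and 1 Tmem130 value of 0 is drawn at 0.03 CPM.

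Adgrb3 and Eml5 were higher than wild type in the floxed cultures given either virus. Adgrb3, an adhesion receptor known from synapses, stood at 0.0301 and 0.402 CPM in wild type and between 3.94 and 10.9 CPM with GFP virus, a log2 fold change of 4.92 (SE 0.61, adjusted p = 0.0041). It stood between 1.82 and 7.73 CPM in the 6 Cre libraries without IL-1β and between 10.3 and 43.1 CPM with GFP virus and IL-1β. Eml5, of a family of microtubule-binding proteins and chosen after its values were seen, stood at 4.15 and 3.84 CPM in wild type and between 16.0 and 45.8 CPM with GFP virus. For both genes the 24 libraries given either virus all lay above the 8 wild-type ones, as held for 0.583% of all genes tested. Adgrb3 passed the filters on level through the GFP libraries and was named for its change in these values. The choice of both genes by their values thus favours the lack of overlap.

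Among the 15 heat shock genes tested, Hspa1a and Hspa1b, the 2 stress-inducible genes of HSP70, were called higher in all 3 lines and the other 13 were not. Hspa1a (chromosome 17, 34969190 to 34972156) stood at 0.872 and 1.72 CPM in wild type, and its CPM was 46.7 and 63.1 in Ldha flox, 102 and 131.5 in Nampt flox and 32.5 and 47.8 in Nfkbiz flox libraries. Its log2 fold change was 5.64 (SE 0.36, adjusted p = 4.80e-04). Hspa1b stood at 7.07 and 6.59 CPM in wild type, 99.2 and 110.0 CPM in Ldha flox, 209 and 225 CPM in Nampt flox and 65.3 and 89.6 CPM in Nfkbiz flox libraries, a log2 fold change of 4.14 (SE 0.17, adjusted p = 7.17e-05). In both genes the Nampt flox libraries were highest and the Nfkbiz flox libraries lowest. No GFP value overlapped wild type, which the choice of both genes by these values favours.

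The rest of the heat shock list moved less. In the mean of the lines, 6 of the 15 were called higher and 1 lower, against 3.33% and 7.77% of all genes. The median log2 fold change was 0.21 against -0.02 over all genes tested. The 7 calls became 2 to 4 without any 1 of the GFP libraries and 12 without wild-type replicate 1. Hspa8, the constitutive HSP70, rose by 0.83 (SE 0.15, adjusted p = 0.016), Hsp90aa1 by 0.88 and Hsph1 by 0.69 on the log2 scale, and Bag3, a co-chaperone, fell by 0.55. Dnajb1 had a log2 fold change of 0.29 (SE 0.12, adjusted p = 0.17) and Hspb1 one of 0.01. With Cre virus Hspa1b stood between 10.3 and 14.3 CPM, and with GFP virus and IL-1β between 217 and 1355 CPM.

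The promoters of the HSP70 pair are shown because both genes rose together. Each window covers 250 bases before to 50 bases after the start in RefSeq's table for GRCm38.p6, 5′ to 3′ on the minus strand, at chr17:34972107-34972406 for Hspa1a and chr17:34959189-34959488 for Hspa1b, and capitals mark the match to GAANNTTC, the core of a heat shock element, at bases -104 to -97 from the start.
Hspa1a: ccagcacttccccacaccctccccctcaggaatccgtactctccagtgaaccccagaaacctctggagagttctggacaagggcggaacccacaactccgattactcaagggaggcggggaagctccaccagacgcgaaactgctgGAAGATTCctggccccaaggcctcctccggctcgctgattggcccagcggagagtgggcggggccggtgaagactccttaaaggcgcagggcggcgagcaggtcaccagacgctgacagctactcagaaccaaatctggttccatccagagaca
Hspa1b: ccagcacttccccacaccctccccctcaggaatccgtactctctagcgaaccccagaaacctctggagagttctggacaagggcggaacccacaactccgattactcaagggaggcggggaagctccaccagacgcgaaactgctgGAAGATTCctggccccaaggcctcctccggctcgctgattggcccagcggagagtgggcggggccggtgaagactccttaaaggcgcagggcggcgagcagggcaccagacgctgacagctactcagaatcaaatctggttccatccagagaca
The windows are the same at 296 of 300 bases (98.7%), and reads from the near-identical genes may be split between them or lost where alignment had to be unique. GAANNTTC, which reads the same on both strands, occurs in 5.6% of the 10949 promoter windows of genes tested and in 2 of the 13 windows found for the 17 genes above, which are those of Hspa1a and Hspa1b. TGACGTCA, the cyclic AMP response element, which also reads the same on both strands, is in 0 of the 13 and in 3.0% of the windows of genes tested. A longer heat shock element, the core with 3 units in place of 2, was in 0 of the 13 windows. It was in 0.42% of the windows of genes tested. The core with its 2 units in the opposite order was also in 2 of the 13 windows, against 6.67% of the windows of genes tested. Neither HSP70 window shown above holds that order. A match or its absence describes letters in these windows.

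Genes known to be activated by p53 were higher in the GFP cultures. Of 20 tested, 13 were called higher in the mean of the lines and 0 lower, against 3.33% and 7.77% of all genes. Their median log2 fold change was 0.70, against -0.02 over all genes. In all 3 lines 5 were called higher, against 0.777% of all genes. Pmaip1, the pro-apoptotic protein NOXA, stood at 1.17 and 0.878 CPM in wild type, 3.63 and 2.93 CPM in Ldha flox, 4.43 and 5.21 CPM in Nampt flox and 7.26 and 6.92 CPM in Nfkbiz flox libraries, a log2 fold change of 2.22 (SE 0.24, adjusted p = 0.0026). Btg2, an antiproliferative gene, stood at 28.03 and 28.54 CPM in wild type and between 53.9 and 71.6 CPM with GFP virus, a log2 fold change of 1.17. Ccng1, Eda2r and Tnfrsf10b rose by 0.90, 1.03 and 0.92 on the log2 scale. Summed over the 20 genes, wild type stood at 1590 and 1548 CPM and the GFP libraries between 2127 and 3152 CPM, highest in Nfkbiz flox. These genes were no lower with Cre virus, with a ratio of GFP to Cre mean of 0.520 for Pmaip1, 0.746 for Btg2 and 0.767 for Ccng1. Cdkn1a, the p53-induced inhibitor of cyclin-dependent kinases, had a log2 fold change of 0.24 in Ldha flox, 0.41 in Nampt flox and 1.13 in Nfkbiz flox, and differed among the lines (adjusted p = 0.027, or 0.067 with the library set as a block). With 1 library left out in turn, between 10 and 17 genes were called, and 7 were with all 8 wild-type libraries as the reference, an alternative added after seeing the data.

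Cell cycle genes were not alike across the lines. Of 30 tested, 4 were called in Ldha flox, 4 in Nampt flox and 0 in Nfkbiz flox, with median log2 fold changes of 1.16, 1.17 and -0.22. In all 3 lines 0 were called, and over all genes the shares were only 0.777% higher and 1.15% lower. In the mean 3 (Ccne1, Ccne2 and Ccnd1) were called higher by edgeR's test, against 3.33% of all genes. Mki67, the proliferation marker, stood at 236 and 92.6 CPM in the 2 wild-type libraries. It stood between 311 and 411 CPM in the Ldha flox and Nampt flox libraries and at 87.3 and 76.6 CPM in Nfkbiz flox, with an adjusted p of 0.043 for the difference among lines. Summed over the list, wild type stood at 2751 and 1658 CPM, the Ldha flox and Nampt flox libraries between 3408 and 3533 CPM and the Nfkbiz flox libraries at 2406 and 2277 CPM. The Nfkbiz flox sums lay between those of the 2 wild-type libraries. At an unadjusted p under 0.05 there were 9 genes higher and 0 lower in the mean. The share of all genes at that p was not computed, so this count has no background to be read against. Without wild-type replicate 1 the list had more calls in the mean, as had all genes.

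Other genes named by rule were higher than wild type in the floxed cultures given GFP virus and in those given Cre virus. Resf1, a regulator of retroelement silencing, stood at 42.4 and 31.5 CPM in wild type and between 142 and 195 CPM with GFP virus, a log2 fold change of 2.21 (SE 0.16, adjusted p = 6.29e-04). Over the series it stood between 25.6 and 45.4 CPM in the 8 wild-type libraries and between 70.8 and 217 CPM in the 24 given virus. Erfe, the hormone erythroferrone that acts on liver iron regulation, stood at 5.32 and 3.11 CPM in wild type, between 51.8 and 55.5 CPM in Ldha flox and Nampt flox and at 13.8 and 13.2 CPM in Nfkbiz flox, a log2 fold change of 3.00 (SE 0.20, adjusted p = 5.32e-04). Card10, a scaffold that links receptors to NF-κB, stood at 3.13 and 2.71 CPM in wild type, between 16.0 and 19.9 CPM in Ldha flox and Nampt flox and at 6.91 and 7.39 CPM in Nfkbiz flox. Both were raised in every line and most in Ldha flox and Nampt flox, with an adjusted p among lines of 0.0100 for Erfe and 0.0121 for Card10. Erfe overlaps Ilkap on the opposite strand.

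Sema3e, a guidance ligand of the semaphorin family, stood at 14.6 and 13.3 CPM in wild type and between 32.6 and 41.1 CPM with GFP virus (log2 fold change 1.38, SE 0.09). Inka2, an inhibitor of the kinase PAK4, stood at 13.5 and 13.4 CPM and between 27.3 and 36.8 CPM (1.24, SE 0.09), and the lines did not differ by the test for either gene. Hmga1, a chromatin protein of growing cells, stood at 45.7 and 47.2 CPM in wild type, between 125 and 191 CPM in Ldha flox and Nampt flox and at 74.9 and 79.6 CPM in Nfkbiz flox (1.36, SE 0.11). With all 8 wild-type libraries as the reference, the log2 fold change of Hmga1 was 0.15 (adjusted p = 0.81). Ddit4, a stress-induced inhibitor of mTORC1, Bmp2, a bone morphogenetic protein, Foxa2, a transcription factor of hypertrophic chondrocytes, and Arntl, the clock factor BMAL1, were also called in all 3 lines, with log2 fold changes of 1.16, 1.01, 1.26 and 0.58. With the library set as a block, Foxa2 and Arntl were not called in all 3 lines (largest adjusted p 0.0673 and 0.0524).

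No interferon-stimulated gene was called higher in the GFP cultures. Of 51 interferon-stimulated genes tested, 0 were called in all 3 lines, against 0.777% of all genes higher and 1.15% lower. In the mean 0 were called higher and 8 lower by edgeR, against 3.33% and 7.77% of all genes. The median log2 fold change was -1.02, against -0.02 over all genes. At an unadjusted p under 0.05 there were 1 higher and 19 lower. The share of all genes at that p was not computed, and calls over all genes also leaned lower, so this count cannot set the list apart from all genes. DESeq2 called 10 in either direction. The list summed to 381 and 657 CPM in the wild-type libraries and between 377 and 426 CPM in the GFP libraries, so that the GFP values lay near the lower wild-type library. Isg15, an interferon-induced ubiquitin-like modifier, averaged 3.76 ± 4.42 CPM (SD, n = 2) in wild type and 1.57 ± 0.829 CPM (SD, n = 6) with GFP virus. Without wild-type replicate 2, the higher library, 6 genes of the list were called in the mean, and 39 were without replicate 1, and 1 or 2 were without any 1 of the GFP libraries. Slfn2 and Parp14 were among the 8, with log2 fold changes of -4.59 and -2.07 and levels under 8 CPM in all 8 libraries.

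Of 17 genes of nucleic acid sensing, 0 were called in all 3 lines, and in the mean Tlr4 was called higher (0.45) and Tlr2, Ifi204 and Ifi203 lower. Over all genes 3.33% were called higher and 7.77% lower in the mean, and 0.777% and 1.15% in all 3 lines. A short list with 0 called in all 3 lines is thus near that background. Of 9 adenovirus entry receptors, 0 were called in all 3 lines. Cxadr stood at 41.6 ± 7.07 CPM (SD, n = 2) in wild type and between 31.3 and 56.6 CPM with GFP virus, so the groups overlapped, and Itga3, an integrin chain, was called higher in the mean (1.03, SE 0.09) and differed among lines (adjusted p = 0.0065), with Nfkbiz flox near wild type at 0.22. Of 20 genes of MHC class I presentation, H2-D1 was called lower in all 3 lines. It stood at 95.8 and 106 CPM in wild type, between 39.9 and 45.6 CPM in Ldha flox and Nampt flox and at 60.9 and 60.1 CPM in Nfkbiz flox, a log2 fold change of -1.09 (SE 0.09, adjusted p = 0.0011).

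Genes of the NF-κB and IL-1β response leaned lower. Of 25 tested, 10 were called lower in the mean and 0 higher, against 7.77% and 3.33% of all genes, at a median log2 fold change of -0.53. Ccl2, Il1rn and Mmp13 were called lower in all 3 lines, as were 1.15% of all genes. Without wild-type replicate 1 the calls in the mean numbered 16. Ccl2, a chemokine that attracts monocytes, stood at 40.4 and 12.6 CPM in wild type and between 1.47 and 5.02 CPM with GFP virus, a log2 fold change of -3.07 (SE 0.34, adjusted p = 0.0030). Mmp13, the collagenase of cartilage breakdown, stood at 88.8 and 99.1 CPM in wild type and between 43.3 and 49.8 CPM with virus, a log2 fold change of -0.99 (SE 0.08, adjusted p = 8.89e-04). Mmp13 fell by similar amounts in each line, by 0.97, 1.08 and 0.92. Il1rn, the natural antagonist of the IL-1 receptor, stood at 10.5 and 7.57 CPM in wild type and between 0.531 and 3.69 CPM with virus, lowest in Nfkbiz flox. Markers of macrophages, which also express some of these genes, moved with them, and their summed level is given with the other cell types.

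Transcripts of RNase P RNA paralogs separated wild type from the floxed lines in every library. RNase P trims the leader from transfer RNA, and its RNA subunit in mouse is Rpph1, with the copies Rprl2 and Rprl3. Rprl3 (chromosome 8, 3803069 to 3803358) stood at 65.8 and 70.7 CPM in wild type and between 0.0527 and 0.448 CPM in the GFP libraries (median 0.147), a log2 fold change of -8.62 (SE 0.26, adjusted p = 1.38e-05). Over the series it stood between 58.2 and 88.2 CPM in the 8 wild-type libraries and at no more than 0.553 CPM in the 24 libraries of floxed lines, all of them given GFP or Cre virus. Rprl2, which is under the level of the rule and was chosen after its values were seen, stood at 8.03 and 15.2 CPM in wild type and between 0.0420 and 0.359 CPM with GFP virus, a log2 fold change of -5.97 (SE 0.45, adjusted p = 7.19e-04). Rpph1 itself was present throughout, at 3488 and 3412 CPM in wild type and between 4138 and 6878 CPM with GFP virus (log2 fold change 0.55, SE 0.17, adjusted p = 0.082).

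The sequences of the pair that was nearly lost are shown as the genome has them (GRCm38, 5′ to 3′ of the gene, Rprl3 at chr8:3803069-3803358 on the minus strand and Rprl2 at chr3:22251374-22251663 on the plus strand), with capitals at the 23 of 290 bases where they differ.
Rprl3: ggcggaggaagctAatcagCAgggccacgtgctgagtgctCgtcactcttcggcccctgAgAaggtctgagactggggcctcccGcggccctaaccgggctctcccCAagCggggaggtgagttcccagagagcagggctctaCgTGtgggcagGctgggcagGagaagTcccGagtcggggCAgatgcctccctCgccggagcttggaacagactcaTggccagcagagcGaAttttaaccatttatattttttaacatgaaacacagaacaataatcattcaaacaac
Rprl2: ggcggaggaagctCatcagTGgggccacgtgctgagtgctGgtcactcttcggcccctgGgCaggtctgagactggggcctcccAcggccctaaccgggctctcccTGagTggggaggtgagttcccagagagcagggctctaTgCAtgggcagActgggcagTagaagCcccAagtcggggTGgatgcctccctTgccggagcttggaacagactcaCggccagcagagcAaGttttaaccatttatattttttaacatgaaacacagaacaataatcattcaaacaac
They are 92.1% identical to each other, and over 284 aligned bases Rprl3 is 86.6% and Rprl2 86.3% identical to Rpph1, which is 319 bases long. The authors counted reads that aligned uniquely, and how reads of these copies were shared among them is not known.

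Nnt, the nicotinamide nucleotide transhydrogenase of mitochondria, was another gene that separated the wild-type from the floxed cultures with little spread. It stood at 46.3 and 47.0 CPM in wild type and between 10.9 and 14.7 CPM with GFP virus, a log2 fold change of -1.89 (SE 0.10, adjusted p = 0.000277). Over the series it stood between 41.1 and 51.0 CPM in the 8 wild-type libraries and between 10.1 and 15.9 CPM in the 24 of floxed lines, and within the floxed lines it was alike with GFP or Cre virus and with or without IL-1β. Nnt is the gene in which the C57BL/6J substrain is known to carry a deletion, and the labels give C57BL/6 for every sample and name no substrain. Ide, which encodes insulin-degrading enzyme and was kept on a list of genes known to vary among C57BL/6 substrains, stood at 154 and 144 CPM in Ldha flox and between 63.1 and 74.2 CPM in the other 6 libraries, with a log2 fold change of 1.08 in that line and an adjusted p among lines of 0.00466. All 8 libraries of the Ldha flox line stood between 133 and 189.6 CPM for Ide.

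Over all 32 libraries, and with no test, 90 genes (0.583%) had every one of the 24 libraries given virus above the 8 wild-type ones, and 193 genes (1.25%) had every one below. Among the genes called in common, 27 of the 120 higher and 67 of the 178 lower were so separated. Resf1 and Card10 were among the 27, and Rprl3, Nnt, Lyz2, Mrc1, Stab1, Mpeg1 and Ctss among the 67. All libraries of floxed lines in the series were given virus, so line and virus are confounded here as well.

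**Figure D4:**
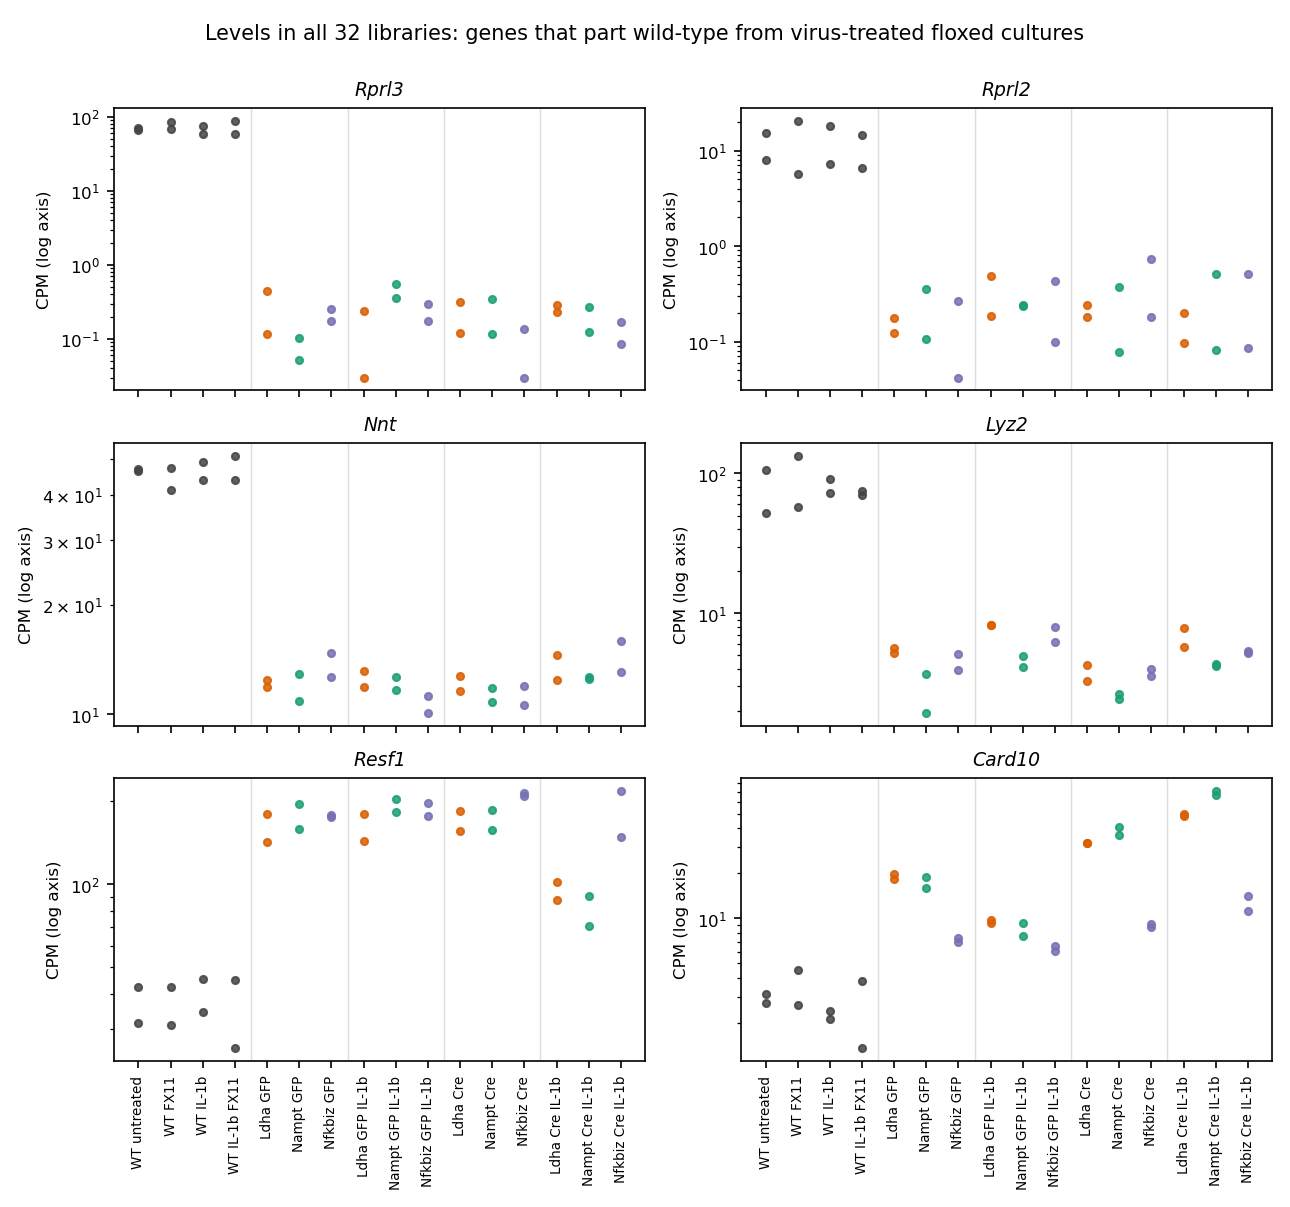
CPM of Rprl3, Rprl2, Nnt, Lyz2, Resf1 and Card10 in all 32 libraries, on log axes, with 1 point per library and the 16 conditions along the horizontal axis (dark grey wild type, orange Ldha flox, green Nampt flox, purple Nfkbiz flox). No point of a floxed line reaches the wild-type range in any panel, with Nnt at 41.1 CPM or more in wild type and at most 15.9 CPM elsewhere, and 2 Rprl3 values of 0 are drawn at 0.03 CPM.

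The genes of the 3 floxed loci were expressed in the GFP cultures, which have not seen Cre. Ldha stood at 727 and 627 CPM in wild type and between 876 and 1419 CPM with GFP virus, a log2 fold change of 0.63 (SE 0.10, adjusted p = 0.011), and was highest in Nfkbiz flox. Nampt stood at 58.3 and 74.3 CPM in wild type and between 54.7 and 78.3 CPM with virus (log2 fold change -0.06, SE 0.12). Nfkbiz stood at 16.3 and 9.26 CPM and between 15.3 and 24.8 CPM (0.56, SE 0.21, adjusted p = 0.13). The wild-type and GFP levels overlapped for Nampt and Nfkbiz. Among sex-linked transcripts, Xist stood at 559 and 157 CPM in wild type and between 473 and 697 CPM with GFP virus, and Y-linked Kdm5d at 18.6 and 26.1 CPM and between 9.68 and 16.1 CPM, a log2 fold change of -0.85 (SE 0.16, adjusted p = 0.017). These pups were pooled regardless of sex, and the shares of male and female cells in a library were not given.

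Markers of several cell types other than chondrocytes were lower in the GFP cultures. In bulk RNA, fewer cells of a type and less RNA per cell cannot be told apart. Of 14 macrophage markers tested, 12 were called lower in the mean and 0 higher, against 7.77% and 3.33% of all genes, with a median log2 fold change of -3.50. In all 3 lines 6 (Adgre1, Csf1r, Lyz2, Tyrobp, Laptm5 and Mrc1) were called lower, against 1.15% of all genes. The 15 markers listed summed to 115 and 345 CPM in the wild-type libraries and between 20.1 and 30.9 CPM in the GFP libraries. Lyz2, lysozyme of myeloid cells, stood at 52.2 and 106 CPM in wild type and between 1.95 and 5.70 CPM with GFP virus, a log2 fold change of -4.25 (SE 0.27, adjusted p = 4.80e-04). Mrc1, the mannose receptor, stood at 7.76 and 53.8 CPM and between 0.691 and 1.60 CPM (-4.76, SE 0.57). The groups did not overlap for either gene, which their choice by these values favours, although the wild-type libraries differed severalfold for Mrc1. Stab1, a scavenger receptor, Mpeg1, a pore-forming protein of phagocytes, and Ctss, a lysosomal protease, fell by 4.32, 4.02 and 3.92 on the log2 scale.

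Other lineages also had markers that were called lower, where over all genes 7.77% were in the mean and 1.15% in all 3 lines. Of 7 neutrophil markers 6 were called lower, and S100a9 and Ngp, granulocyte proteins, were called in all 3 lines, with log2 fold changes of -2.82 and -2.31. Of 12 skeletal muscle markers 10 were called lower, and Myh8, the perinatal myosin, stood at 18.4 and 13.9 CPM in wild type, between 4.68 and 8.85 CPM in Ldha flox and Nampt flox and at 0.177 and 0.252 CPM in Nfkbiz flox. The muscle list summed to 399.5 and 114 CPM in wild type and between 77.1 and 130 CPM with GFP virus, so the groups overlapped in the sum. Of 6 adipocyte markers 4 were called lower, but Fabp4, their most abundant, stood at 14.9 CPM in wild-type replicate 1 and 249 CPM in replicate 2, against 8.43 to 14.3 CPM with GFP virus. Of 7 endothelial markers Cdh5 was called lower in all 3 lines (-3.80) and Tek higher in the mean (1.76), at levels under 6 CPM. Of 5 tendon and synovium markers Tnmd was called lower in all 3 lines (-1.91). The counts called in the mean with 1 library left out were 8 to 14 for macrophage and 8 to 11 for skeletal muscle markers. How far these cells bear on the lists described above was not tested. Of the 12 muscle markers, 3 were called in the mean with the Nfkbiz flox line left out.

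Cartilage matrix genes were lower in the mean. Of 29 tested, 13 were called lower and 1 (Cytl1) higher, against 7.77% and 3.33% of all genes, at a median log2 fold change of -0.74. Matn4 was called lower in all 3 lines, as were 1.15% of all genes. By line, 10 of the 29 were called in Ldha flox (median -0.80), 10 in Nampt flox (median -0.93) and 1 in Nfkbiz flox (median -0.36). Matn4, a matrilin of the pericellular matrix, stood at 50.2 and 71.2 CPM in wild type and between 14.7 and 23.5 CPM with GFP virus, a log2 fold change of -1.71 (SE 0.16, adjusted p = 0.0014). Acan stood at 10870 and 15450 CPM in wild type, between 5963 and 6909 CPM in Ldha flox and Nampt flox and at 9140 and 11520 CPM in Nfkbiz flox, so that 1 Nfkbiz flox library lay within the wild-type range (log2 fold change -0.83, SE 0.17, adjusted p = 0.023). Matn1 stood at 79.6 CPM in wild-type replicate 1 and 1099 CPM in replicate 2 and between 51.1 and 81.2 CPM with GFP virus. The count of 14 genes called fell to 5 to 7 when any GFP library was left out and was 25 without wild-type replicate 1. Clec3a, a lectin known from cartilage, is outside the list and was named by rule. It stood at 80.5 and 91.5 CPM in wild type and between 28.5 and 34.6 CPM with GFP virus (-1.42, SE 0.09, adjusted p = 4.46e-04), with little spread among lines. With all 8 wild-type libraries as the reference it did not pass (adjusted p = 0.19).

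Of 20 transcription factors and genes of hypertrophy, Pth1r, Mef2c and Ibsp were called lower in all 3 lines and Foxa2 higher. The shares over all genes were 1.15% lower and 0.777% higher. Pth1r, the receptor of parathyroid hormone-related protein that restrains hypertrophy, stood at 91.0 and 111 CPM in wild type and between 38.0 and 56.6 CPM with GFP virus. Mef2c, a transcription factor that promotes hypertrophy, fell by 0.83 on the log2 scale. Ibsp, bone sialoprotein, stood at 32.8 and 42.0 CPM in wild type, between 13.5 and 17.8 CPM in Ldha flox and Nampt flox and at 3.67 and 2.60 CPM in Nfkbiz flox.

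Of 21 genes of fibroblast matrix and dedifferentiation, 3 were called lower in all 3 lines (Col3a1, Col1a2 and Thbs2), each of them lowest in Nfkbiz flox. Over all genes 1.15% were called lower in all 3 lines and 7.77% in the mean. The list as a whole had a median log2 fold change of 0.12 in Ldha flox, 0.08 in Nampt flox and -0.84 in Nfkbiz flox, with 3, 4 and 11 genes called. It summed to 46360 and 39210 CPM in wild type, between 42130 and 45170 CPM in Ldha and Nampt flox and to 25930 and 33320 CPM in Nfkbiz flox. Col3a1, type III collagen, stood at 783 and 884 CPM in wild type, 379 and 410 CPM in Ldha flox, 358 and 375 CPM in Nampt flox and 82.4 and 81.3 CPM in Nfkbiz flox, a log2 fold change of -1.87 (SE 0.09, adjusted p = 1.47e-04). Col1a2, of type I collagen, had log2 fold changes of -0.75 in Ldha flox, -0.92 in Nampt flox and -2.72 in Nfkbiz flox. Thbs2, a thrombospondin, had -0.63, -0.72 and -2.33, and Cdh11, a cadherin of mesenchymal cells, -0.76, -0.90 and -2.47. Fndc1, a fibronectin-domain protein, stood at 108 and 110 CPM in wild type, 45.9 and 42.2 CPM in Ldha flox, 29.98 and 28.1 CPM in Nampt flox and 11.9 and 15.2 CPM in Nfkbiz flox. Adam23, of the disintegrin family, had log2 fold changes of -1.33, -0.97 and -3.04. In the comparison of 6 against 2 libraries that counts the spread among lines as error, Col3a1, Col1a2, Thbs2, Cdh11 and Adam23 did not pass (adjusted p from 0.12 for Adam23 to 0.23 for Thbs2). Of the 21 genes of the fibroblast matrix list, 7 were called lower and 0 higher in the mean, 0 were in that comparison of 6 against 2, and 12 were without wild-type replicate 1. Osteoblast markers moved with these genes. Of 7 tested, 2 were called lower in the mean and 0 higher, Ibsp was called in all 3 lines, and the 8 listed summed to 4355 and 5629 CPM in wild type, between 2743 and 3604 CPM in Ldha and Nampt flox and to 435.5 and 621 CPM in Nfkbiz flox. Their part in the result was not tested.

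Growth factor and protease lists held further genes lower in all 3 lines. For the counts that follow, the shares of all genes were 3.33% higher and 7.77% lower in the mean, and 0.777% and 1.15% in all 3 lines. Igf1, insulin-like growth factor 1, stood at 39.4 and 83.1 CPM in wild type and between 5.00 and 20.3 CPM with GFP virus, a log2 fold change of -2.37 (SE 0.25, adjusted p = 0.0023). Its binding proteins Igfbp3 and Igfbp7 and the Wnt antagonist Sfrp1 fell by 2.67, 1.48 and 1.24 on the log2 scale. In all, 10 of the 31 genes of growth factor signalling were called lower in the mean and 1, Bmp2, higher, and the 11 calls became 20 without wild-type replicate 1 and 7 or 8 without a GFP library. Of 22 proteases and inhibitors 10 were called lower and 1, Serpine2, higher, and the 11 calls became 18 without wild-type replicate 1 and between 7 and 9 without a GFP library. Besides Mmp13, these were Mmp2 and Mmp9, which are gelatinases, and Adamts5, an aggrecanase, in all 3 lines, with log2 fold changes of -0.81, -3.21 and -1.19. With the library set as a block Mmp2 was not called in all 3 lines (largest adjusted p 0.051). Of 26 genes of glycolysis and hypoxia, 5 were called higher in the mean and 0 lower. By line 0 were called in Ldha flox, 0 in Nampt flox and 9 in Nfkbiz flox, with medians of 0.13, 0.12 and 0.54. The count in the mean was between 1 and 3 without a GFP library, 10 without wild-type replicate 1 and 12 without replicate 2. Klf2, an immediate early transcription factor, was the only 1 of 22 immediate early genes called in all 3 lines (-0.83). Of the lists with no gene in common, the mean called 1 of 20 actin and contractile genes lower, 1 of 16 NRF2 targets higher and 2 lower, 1 of 20 cholesterol synthesis genes each way, and 0 of 13 mitochondrially encoded genes.

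**Figure D5:**
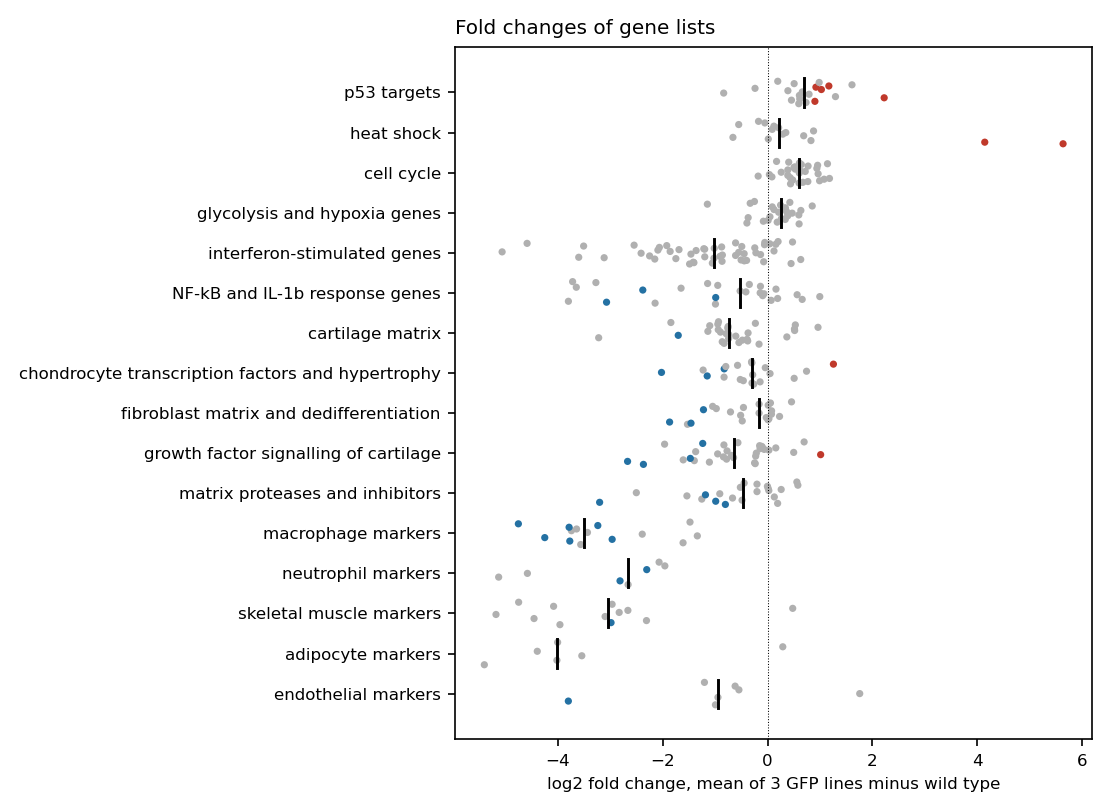
Each point is a gene of the list named at the left, placed by its log2 fold change, mean of the 3 GFP lines minus untreated wild type, and the black bar is the list's median. Red and blue points are genes called higher or lower in all 3 lines; the median was 0.70 for p53 targets, -0.74 for cartilage matrix and -3.50 for macrophage markers.

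The comparison was repeated in libraries that had not been used, the GFP cultures and wild type given IL-1β, over 16055 genes. In the mean of the lines 1084 genes were called higher (6.75%) and 1518 lower (9.45%). Of the 120 genes called higher without IL-1β, 119 were tested, 114 had a positive fold change and 76 were called higher. Of the 178 called lower, 177 were tested, 176 had a negative fold change and 137 were called lower. Tmem130, Zan, Hspa1b and Fem1a had log2 fold changes of 12.72, 9.25, 5.95 and 4.32, and Rprl3, Nnt and Lyz2 of -7.99, -1.95 and -3.63. These libraries come from the same lines and, as far as the labels show, may come from the same cell preparations. Mmp3, which chondrocytes express strongly on exposure to IL-1β, stood at 9293 CPM in replicate 1 of the wild-type libraries labelled IL-1β but at 0.790 CPM in replicate 2, against 1.08 and 0.805 CPM untreated. The wild-type libraries labelled FX11, with no IL-1β in their label, stood at 1.21 CPM in replicate 1 and 2033 CPM in replicate 2. Replicate 2 of each thus goes against its label, and the counts under IL-1β rest on the labels as given. Without replicate 2 of those labelled IL-1β, the reference is 1 library whose spread is assumed from the other groups, and calls rose over all genes. How many of the 120 and the 178 genes are called there is therefore not given.

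The lines were not alike. By the F test among the 3 lines 568 genes differed (3.68% of those tested), and 225 did with the library set as a replicate block. Of 24 such genes named here, 20 also differed with the block, and Cdkn1a, Tnmd, Ccnd1 and Serpine2 did not. They included 11 of the 120 genes called higher in common and 27 of the 178 called lower. Both Nfkbiz flox libraries come from the second set, so the line and the set are partly confounded. For 86 of the 178 genes called lower the change was largest in Nfkbiz flox, for 69 in Nampt flox and for 23 in Ldha flox, and for the 120 genes called higher the numbers were 36, 61 and 23.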

How the data were processed

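The series holds 32 RNA libraries of mouse chondrocytes, and 8 enter the comparison. The authors aligned reads to GRCm38 with STAR and deposited whole-number counts per gene of uniquely aligned reads from featureCounts. The submitters' processing notes give versions 2.0.4b and 1.45, and the study's methods name other versions of both. The strand setting is not given in the sources used here. The authors also deposited CPM and RPKM values. The deposited CPM equals the count over the library's total within 4.9e-10, and neither CPM nor RPKM entered a test. The table held 41388 genes, of which 40254 had a symbol, and 355 ribosomal RNA genes were left out.

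Genes over 1 CPM in at least 1 of the 8 libraries were tested with edgeR 4.0.16 (R 4.3.3), with TMM normalization and the quasi-likelihood test, two-sided, over 4 groups of 2 libraries. SE is the log2 fold change over the square root of F. A call is a Benjamini-Hochberg adjusted p of 0.05 or less. The contrasts were each line, the mean of the 3 lines and differences among lines, and the IL-1β libraries had a fit of their own. The script was tested on simulated data, in which a call in all 3 lines was made for 12 of 100 genes changed 2-fold and 99 of 100 changed 4-fold. A list with 0 genes called in all 3 lines can thus still hold 2-fold changes. Libraries were grouped by their labels. Members and gene lists were chosen with earlier results of these data known. Genes named were, among those called in all 3 lines with at least 5 CPM, the 12 per direction with the smallest adjusted p and the 6 with the largest change, then list members called in all 3 lines, defining markers, floxed genes and sex-linked transcripts. Other names were chosen after their values were seen.

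The title styles of the labels place libraries in 2 sets. Deviations from the group mean in set 1 correlated at 0.116 for wild type with Ldha flox, 0.146 for wild type with Nampt flox and 0.598 for Ldha flox with Nampt flox (10740 genes), so the set was taken to pair libraries and was added as a block in an alternative. Other alternatives were DESeq2 1.42.0, limma 3.58.1 with voom and quality weights, other size factors, other filters, 1 library, line or set left out, and all 32 libraries in 1 model.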

Additional observations from a re-analysis of the deposited data

Results flagged for a closer look

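The change against wild type differed among the 3 floxed lines for 24 genes named in the text, by edgeR's F test with 2 libraries per line. The adjusted p was 0.00214 for Col3a1, 0.00249 for Cdh11, 0.00257 for Myh8, 0.00466 for each of Adam23, Thbs2 and Ide, 0.00505 for Col1a2, 0.00647 for each of Fndc1 and Itga3 and 0.00733 for Ibsp. It was 0.0151 for Adamts5, 0.0165 for S100a9, 0.0233 for Ngp, 0.0267 for each of Il1rn and Cdkn1a, 0.0313 for Tnmd, 0.0394 for Ccnd1, 0.0422 for Serpine2 and 0.0429 for Mki67.

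Among genes called higher in all 3 lines, the adjusted p was 0.0100 for Erfe, 0.0114 for Hspa1b, 0.0121 for Card10, 0.0134 for Hmga1 and 0.0253 for Tmem130. Hspa1b was highest in Nampt flox and lowest in Nfkbiz flox, Tmem130 was lowest in Ldha flox, and Ide stood apart in Ldha flox alone. Both Nfkbiz flox libraries come from the second set of libraries, so line and set are partly confounded for that line.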

How the results depend on the processing

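With 2 libraries per group, the counts of genes called moved with most settings. Of 1633 values of the 71 named genes over 23 settings, 1525 kept their direction and, where tested, their side of the threshold. Of the 71 genes, 67 were called in all 3 lines in the main fit, and most settings reuse the same libraries. This share was thus partly fixed by the choice of genes. Another 46 lost the call and 4 gained it. The first set alone allows no test. There, 54 of the 71 named genes kept their direction, but their difference of log2 CPM lay more than 1 SE from the main value. Some were smaller, such as Col1a2 at -0.6425 against -1.463, and others larger, such as Hmga1 at 1.785 against 1.358. The 16 genes within 1 SE are counted in the 1525. A further 4 values changed sign. These are Nampt, at 0.0552 in the first set alone and 0.145 without wild-type replicate 2 (from -0.242 to 0.145 with 1 library left out), and, with all 8 wild-type libraries as the reference, Ldha at -0.0935 and Nfkbiz at -2.42. That reference was chosen after seeing the data and includes libraries labelled IL-1β. Foxa2 and Arntl lost their calls in the mean without some GFP libraries. What causes these changes was not tested.

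Counts follow as genes called in all 3 lines higher and lower, in the mean, in Ldha, Nampt and Nfkbiz flox, and among lines, where they moved by over 1.5 times. DESeq2 gave 207 and 381 in common, 1687, 2066 and 1639 per line, 1588 among lines and 1665 higher under IL-1β. Voom gave 23 and 100, 784 in the mean and 264, 568 and 635 per line. Without a filter there were 296 and 718, 3328, then 2665, 2986 and 2410, and 2423 among lines. The second set alone gave 1214 and 1590, 6236, then 5480, 5678 and 4805, and 4324, with the lone wild-type library, Ldha and Nampt flox library each assumed to vary like the Nfkbiz flox pair. Asking also for a 2-fold change left 78 and 117, 866, and 417, 585 and 709. Without the Nfkbiz flox line there were 58 and 62, 876, then 130 and 268, and 2 among lines. The comparison of 6 against 2 libraries gave 808 in the mean. All 32 libraries in 1 model gave 1177 in Ldha flox and 968 among lines, and all 8 wild-type libraries as the reference gave 3515 in the mean, 1098 in Ldha flox and 67 among lines.

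With the library set as a replicate block, 225 genes differed among lines in place of 568, and the block moved no other count of genes called by over 1.5 times. It left the calls of the 71 named genes in the mean on the same side. Of the 67 named genes called in all 3 lines, 64 were with the block, all but Arntl, Foxa2 and Mmp2. Of the 24 named genes that differed among lines, 20 did with the block. Leaving out 1 library at a time gave 11 to 982 higher and 2 to 1306 lower in common, 678 to 5292 in the mean, 19 to 5120 in Ldha flox, 41 to 5479 in Nampt flox, 155 to 3443 in Nfkbiz flox, 3 to 3694 among lines, and 338 to 4147 higher and 344 to 4191 lower under IL-1β. Where this leaves a group with 1 library, that library is assumed to vary like the other groups.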
